A study of Homo sapiens with 18 samples.

Results

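The proteasome is the protease that degrades ubiquitin-tagged proteins, and the genes of its subunits and of its own regulators are described here across 3 RNA sequencing comparisons in human cell lines. Members were chosen by gene symbol alone: PSMA, PSMB, PSMC, PSMD, PSME, PSMF or PSMG followed by a number, with pseudogenes and antisense genes left out. The family was put forward after these same comparisons had been seen, so the counts of members below are descriptions and nothing is read from them against chance. The rule found 46 of the 15543 genes listed for SW480-LM3 and SW480-P, 47 of 31585 for the LX-2 cells and 47 of 32555 for LV5-NID1 and LV5. PSMB11, the core subunit known from the thymus, was listed in the last pair of tables only and was at 0 in 5 of 6 libraries of each, below the filter on low values. No RNA level of PSMA8, the testis form of an alpha subunit, was analysed here. The other 46 members passed the filter and were tested in every comparison.

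Each comparison set 3 libraries against 3. For the first, SW480 cells, from a human colorectal carcinoma, were injected into the spleen, and 3 successive screens gave the strongly metastatic SW480-LM3, with SW480-P as its parent line. For the second, LX-2, a line of human hepatic stellate cells (the liver cells that lay down scar matrix once activated), was kept for 48 h with exosomes carrying NID1 (EV-XP-NID1-LX-2) or with control exosomes (EV-XP-LX-2). What XP stands for is not stated. For the third, SW480 made to overexpress NID1 was given GW4869, an inhibitor of neutral sphingomyelinase that reduces vesicle release, for 72 h (LV5-NID1), and LV5 is the control. It is not stated if the LV5 control was given GW4869 as well, so overexpression and the inhibitor cannot be told apart. Nor is it stated if the 3 libraries of a group are separate cultures: the p-values rest on the variation among them, which may be technical.

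In the standard proteasome, a barrel of alpha and beta rings carries the proteolytic sites inside, and a cap made of a base with ATPases and a lid recognises, unfolds and feeds in ubiquitin-tagged proteins. Interferon-inducible beta subunits can replace the catalytic ones to form the immunoproteasome, whose peptides serve class I antigen presentation, and PA28 can take the place of the cap. Dedicated chaperones build the rings and the base, and the transcription factor NRF1, the product of NFE2L1, raises subunit genes together when proteasome capacity falls short.

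The targeted gene was checked first. NID1 had 44.7, 49.1 and 46.9 signal units in SW480-LM3, against 0.570, 0.582 and 0.352 signal units in SW480-P, where the signal is reads divided by a factor per library. It was also high with overexpression, at 359.9 ± 16.6 TPM in LV5-NID1 and 0.0200 ± 0.0200 TPM in LV5 (SD, n = 3 each). In LX-2 cells given NID1 vesicles its own RNA was lower, at 20.8 ± 2.44 TPM in EV-XP-NID1-LX-2 and 25.4 ± 0.4996 TPM in EV-XP-LX-2 (adjusted p = 0.0372), and since the protein was delivered in vesicles this is no check of the treatment. Recovered reads were 15531517 to 16586016 per SW480-LM3 library and 15504205 to 18965163 per SW480-P library, while no depth is known for the libraries given in TPM. The mean profile of SW480-P ranked genes more like LV5 (Spearman rho 0.886) and LV5-NID1 (0.889) than like SW480-LM3 (0.793), over 14744 genes that share no normalisation. The summed signal of 8 listed colon epithelium markers was 13175 to 13888 in SW480-LM3 and 3522 to 3789.5 in SW480-P. Change during selection and origin in another line therefore cannot be told apart for SW480-LM3, and this applies to every result of that comparison. In the LV5-NID1 and LV5 libraries, 4 of 10 colon epithelium markers reached 1 TPM in at least 3 libraries. VIL1 and CDH1, a microvillus protein and the epithelial cadherin, were below 1 TPM in every one of these libraries. In bulk RNA, fewer cells of a type and less RNA per cell cannot be told apart either. Among the LX-2 libraries, 9 of 11 stellate or fibroblast markers reached 1 TPM in at least 3 libraries, and no endothelial or hepatocyte marker reached that level in any of the 3 tables.

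The start regions of 6 members are shown as examples from the results that follow: the 3 inducible catalytic subunits, a core and a base subunit with a large difference in SW480-LM3, and the inhibitor gene that went the other way. Each run is 300 bases of GRCh38.p14 from RefSeq, on the gene's own strand, from 250 bases before to 50 after an annotated start. Capitals mark matches on either strand to 5 short motifs. These are the gamma-activated site core, spelled TTCNNNGAA, the antioxidant response element core, spelled TGACNNNGC, the ETS core, spelled CCGGAAG, and the CCAAT box. The fifth, the interferon-stimulated response element core, is GAAA, then any pair of bases, then the same 4 letters again. The windows lie at chr6:32843998-32844297 (minus strand) for PSMB8, chr6:32853942-32854241 (plus) for PSMB9, chr16:67936801-67937100 (minus) for PSMB10, chr1:109426399-109426698 (minus) for PSMA5, chr11:47426390-47426689 (minus) for PSMC3 and chr20:1118352-1118651 (plus) for PSMF1.
PSMB8: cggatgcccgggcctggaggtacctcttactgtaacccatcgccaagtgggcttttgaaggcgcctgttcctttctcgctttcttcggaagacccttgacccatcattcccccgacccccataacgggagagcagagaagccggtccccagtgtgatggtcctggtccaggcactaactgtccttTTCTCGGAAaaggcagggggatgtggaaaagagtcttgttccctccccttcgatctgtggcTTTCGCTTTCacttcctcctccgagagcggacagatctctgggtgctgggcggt
PSMB9: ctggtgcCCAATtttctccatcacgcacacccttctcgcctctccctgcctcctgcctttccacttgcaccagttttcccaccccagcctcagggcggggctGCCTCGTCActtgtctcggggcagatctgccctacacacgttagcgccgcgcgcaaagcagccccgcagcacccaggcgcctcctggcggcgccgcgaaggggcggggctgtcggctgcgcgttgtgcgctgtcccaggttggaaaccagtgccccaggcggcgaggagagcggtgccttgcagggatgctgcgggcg
PSMB10: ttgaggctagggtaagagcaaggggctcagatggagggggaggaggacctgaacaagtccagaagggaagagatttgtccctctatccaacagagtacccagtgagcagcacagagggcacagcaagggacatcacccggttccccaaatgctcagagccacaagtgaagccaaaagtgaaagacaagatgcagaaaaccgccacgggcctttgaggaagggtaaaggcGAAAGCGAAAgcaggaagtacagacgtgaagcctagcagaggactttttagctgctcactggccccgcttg
PSMA5: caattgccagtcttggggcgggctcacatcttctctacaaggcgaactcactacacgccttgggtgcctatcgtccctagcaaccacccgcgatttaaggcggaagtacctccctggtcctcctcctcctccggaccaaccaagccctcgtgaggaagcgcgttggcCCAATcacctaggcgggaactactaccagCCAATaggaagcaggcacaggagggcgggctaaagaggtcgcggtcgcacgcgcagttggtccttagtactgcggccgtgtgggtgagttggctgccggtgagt
PSMC3: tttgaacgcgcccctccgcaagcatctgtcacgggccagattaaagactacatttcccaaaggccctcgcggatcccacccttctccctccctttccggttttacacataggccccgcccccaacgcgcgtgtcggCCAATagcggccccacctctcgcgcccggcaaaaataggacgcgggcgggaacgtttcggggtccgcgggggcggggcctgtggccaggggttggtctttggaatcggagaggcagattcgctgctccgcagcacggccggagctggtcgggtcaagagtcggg
PSMF1: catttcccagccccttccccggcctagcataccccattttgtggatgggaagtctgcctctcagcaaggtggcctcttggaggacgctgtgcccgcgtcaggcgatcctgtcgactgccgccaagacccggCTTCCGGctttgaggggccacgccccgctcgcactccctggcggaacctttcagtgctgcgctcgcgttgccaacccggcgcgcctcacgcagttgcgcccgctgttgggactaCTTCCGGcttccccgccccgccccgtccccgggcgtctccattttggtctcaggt

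In these windows PSMB8 held one match to the gamma-activated site core and one to the interferon-stimulated core, PSMB10 one to the interferon-stimulated core, and PSMB9 one to the antioxidant core and one CCAAT box. PSMA5 held a pair of CCAAT boxes, PSMC3 one, and PSMF1 a pair of ETS cores, and no match overlapped another. The table gives a second window for PSMB8 (chr6:32844630-32844929) and for PSMF1 (chr20:1113013-1113312), and neither held a match. RefSeq gave 51 windows for 42 symbols of the family, PSMA8 among them. It gave no window for PSMA7, PSMB1, PSMB6, PSMB7, PSMD4 and PSMG3, so these were not searched for motifs. Of the 51 windows, 29.4% held the antioxidant core, against 13.3% of all 34943 windows, 29.4% the ETS core, against 10.2%, and 13.7% the interferon-stimulated core, against 3.6%. The gamma-activated core was in 15.7% of member windows, against 7.7% of all, and the CCAAT box in 39.2%, against 34.6%. A match is a run of letters and says nothing of whether a factor binds there.

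SW480-LM3 had lower RNA for most of the proteasome than SW480-P. Of the 46 members, 42 were lower and 3 higher at a Benjamini-Hochberg adjusted p under 0.05 (limma over all 14527 genes tested), beside 43.9% of all genes lower and 43.9% higher. The median log2 difference of the members was -1.16, and that of all genes -0.0041. In 27 members the fall was at least 1 on the log2 scale, beside 21.4% of all genes. Of the summed signal, all members together made up 0.603% ± 0.00990 in SW480-LM3 and 1.19% ± 0.00786 in SW480-P (SD, n = 3 each). By role, the median was -1.59 in the standard beta ring, -1.57 in the alpha ring, -1.33 in the base, -1.30 in the core assembly chaperones, -1.18 in the base chaperones, -0.71 in the immunoproteasome, -0.60 in the lid and 0.12 in the activators and inhibitor. With GC and length trends removed this order was not kept: the medians were -1.21 in the standard beta ring, -1.09 in the base, -1.06 in the base chaperones, -0.90 in the core assembly chaperones, -0.49 in the alpha ring, -0.47 in the immunoproteasome, -0.46 in the lid and -0.13 in the activators and inhibitor. The plot of log2 differences by gene shows the values as deposited.

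**Figure D1:**
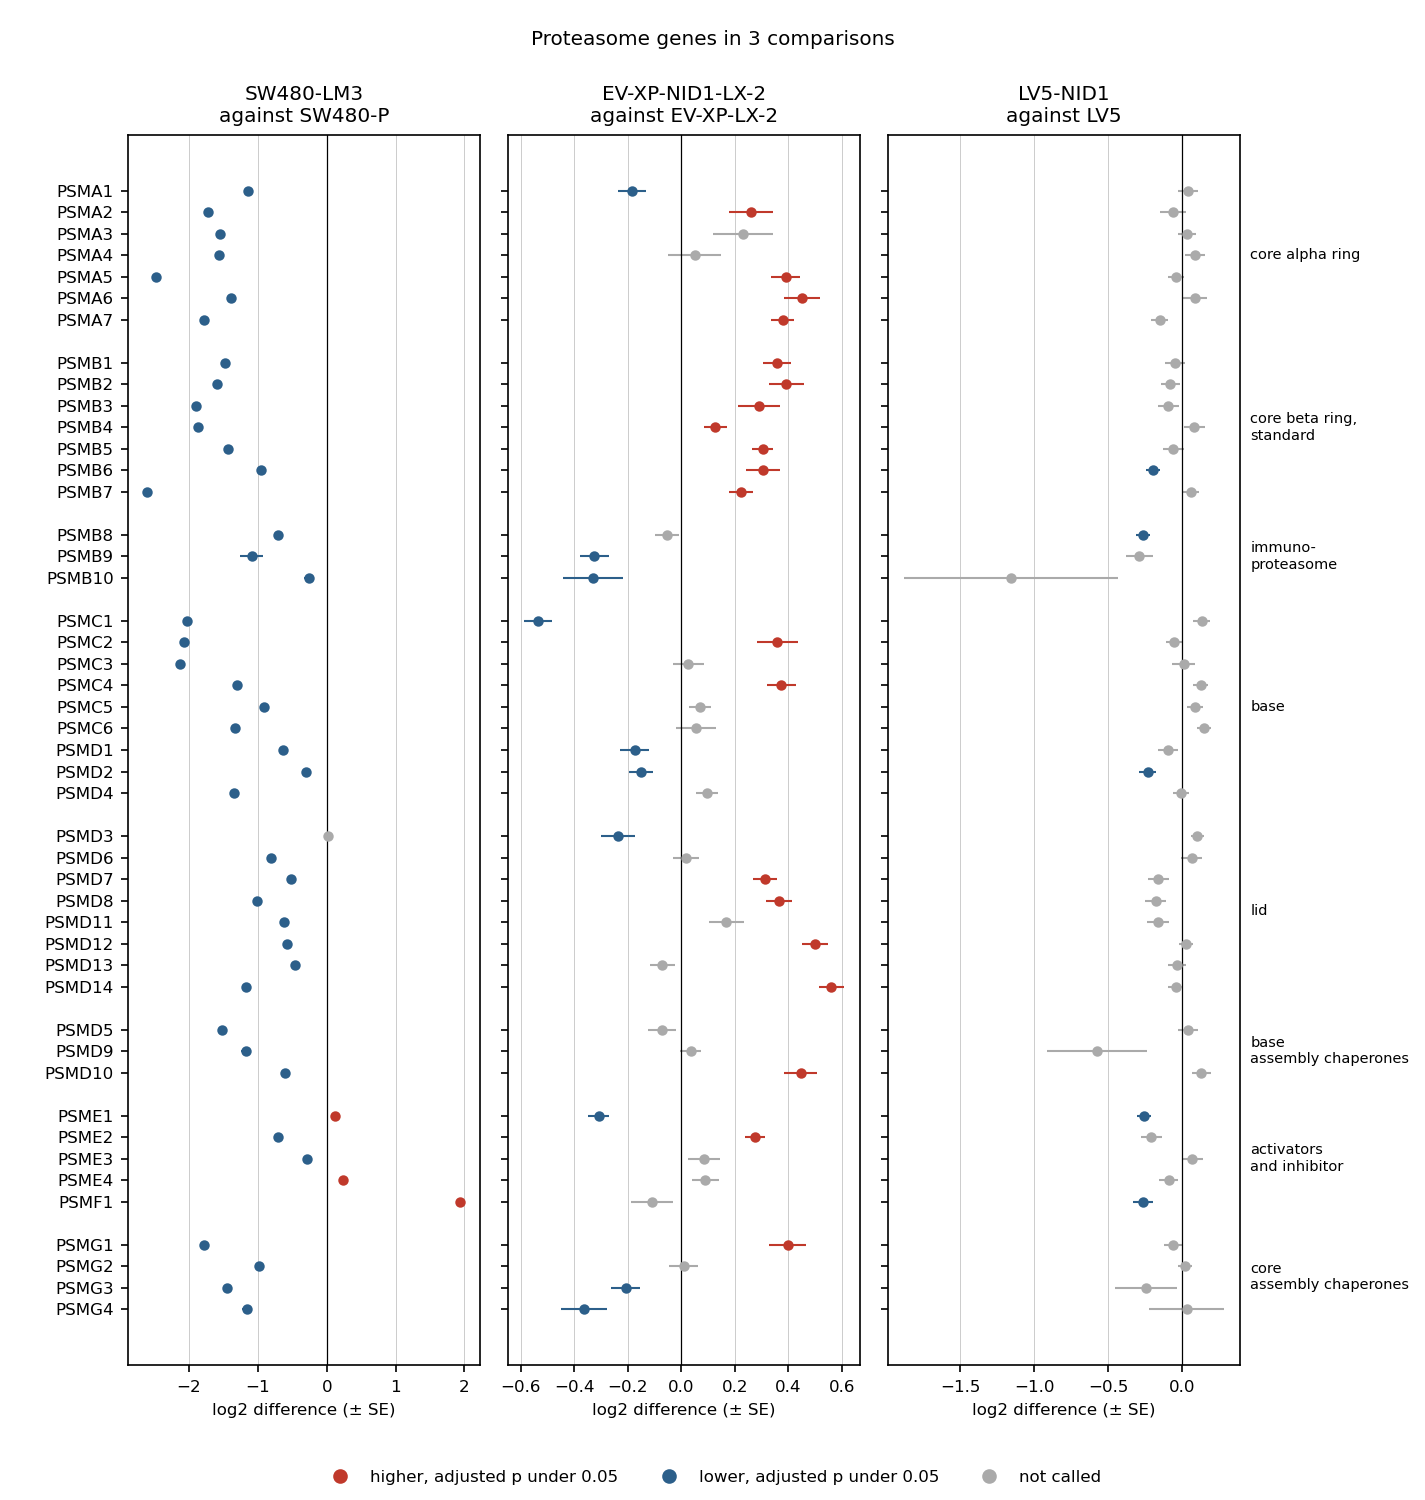
Log2 difference with its standard error (horizontal axis, log2 of the value plus 1, first-named group minus second) for 46 proteasome genes, grouped by role, in the 3 comparisons of 3 libraries against 3. The horizontal scales differ: the SW480-LM3 panel runs past -2 and holds 42 genes that were lower, the LX-2 panel stays within -0.54 and 0.56, and the LV5-NID1 panel has 5 genes lower and wide errors for PSMB10, PSMD9, PSMG3 and PSMG4.

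The alpha ring is the gate and the docking face of the barrel, and all 7 of its genes were lower in SW480-LM3. PSMA5 had 95.5, 94.7 and 91.5 signal units in the SW480-LM3 libraries, against 521, 536 and 530.1 signal units in the SW480-P libraries. No library of one group came near the other, and the mean was 5.63-fold lower (log2 difference -2.48, SE 0.035, adjusted p = 1.09e-16). PSMA7, the member with the highest signal of this ring in SW480-P, had 285, 281 and 279 signal units in SW480-LM3, against 999, 964 and 953 signal units in SW480-P (log2 difference -1.78, SE 0.030, adjusted p = 5.36e-16). PSMA1 changed least in the ring, at 215 ± 2.07 signal units in SW480-LM3 and 477 ± 19.2 signal units in SW480-P (log2 difference -1.14, SE 0.035, adjusted p = 2.58e-13), which is still a clear separation of the groups. The remaining alpha genes, PSMA2, PSMA3, PSMA4 and PSMA6, had log2 differences between -1.72 and -1.39. The table of these lines lists PSMA2 under another gene ID (ENSG00000256646) than the LX-2 and LV5 tables do, one that GENCODE v29 gives to the overlapping gene AC010132.3.

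The 7 standard beta genes were also all lower. PSMB7 encodes the subunit with trypsin-like activity and had 128, 119 and 120.5 signal units in the SW480-LM3 libraries, against 760.0, 772 and 731 signal units in the SW480-P libraries. This was the largest fall of all members, 6.15-fold (log2 difference -2.61, SE 0.037, adjusted p = 1.24e-16). PSMB5, which carries the chymotrypsin-like activity and is the main target of bortezomib, had 94.96, 102 and 98.5 signal units in SW480-LM3, against 276, 271 and 251 signal units in SW480-P (log2 difference -1.43, SE 0.044, adjusted p = 2.86e-13). PSMB6, with the caspase-like activity, had 121, 114 and 113 signal units in SW480-LM3, against 235, 228 and 214 signal units in SW480-P and the smallest fall of the ring (log2 difference -0.96, SE 0.044, adjusted p = 2.43e-11). The 3 standard catalytic subunits, which stand in equal number in the assembled barrel, thus fell by unequal amounts on the log2 scale. The remaining beta genes, PSMB1 to PSMB4, had log2 differences between -1.90 and -1.47. Summed over both rings, the share of the standard core in the signal was 0.219% ± 0.00446 in SW480-LM3 and 0.592% ± 0.00251 in SW480-P.

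The 3 inducible catalytic subunits were lower too, PSMB8 and PSMB10 by less than their standard counterparts. PSMB8 had 34.3, 35.1 and 37.4 signal units in SW480-LM3, against 57.02, 61.3 and 58.02 signal units in SW480-P (log2 difference -0.71, SE 0.059, adjusted p = 2.63e-08). PSMB10 had 33.5, 35.2 and 31.8 signal units in SW480-LM3, against 42.4, 39.2 and 38.98 signal units in SW480-P (log2 difference -0.26, SE 0.066, adjusted p = 0.0021), a small difference that did not hold when libraries were scaled to their totals (0.024, adjusted p = 0.731). PSMB9 was low throughout, at 3.43, 5.73 and 5.53 signal units in SW480-LM3, against 11.5, 13.5 and 9.305 signal units in SW480-P (log2 difference -1.09, SE 0.17, adjusted p = 2.63e-05), and its groups did not overlap. It rested on 59 to 232 recovered reads per library, beside 2042 to 13261 for PSMB7. In GENCODE 29 (GRCh38; the authors' own build is not stated) PSMB8 lies at chr6:32840717-32844703 on the minus strand and PSMB9 at chr6:32844136-32859585 on the plus strand, and exons of both overlap PSMB8-AS1. No source used here says if the counting used strand, so reads of such overlapping genes may be shared.

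Within a library, the ratio of an inducible subunit to the standard one it replaces does not depend on scaling of the library. For PSMB10 over PSMB7 the ratio of signals was 0.261, 0.295 and 0.264 in SW480-LM3, against 0.0558, 0.0508 and 0.0534 in SW480-P. All SW480-LM3 ratios lay far above those of SW480-P, a log2 difference of 2.36. For PSMB8 over PSMB5 the ratio was 0.361, 0.345 and 0.379 in SW480-LM3, against 0.206, 0.226 and 0.231 in SW480-P, again with no overlap, a log2 difference of 0.71. For PSMB9 over PSMB6 it was 0.0284, 0.0505 and 0.0491 in SW480-LM3, against 0.0492, 0.0594 and 0.0434 in SW480-P, and the groups overlapped. These signals are not per length, so a ratio is compared here between libraries but does not give the proportion of the transcripts. GC content is 60.1% in PSMB10 and 49.9% in PSMB7, and the part of GC content and length in these ratios was not tested.

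**Figure D2:**
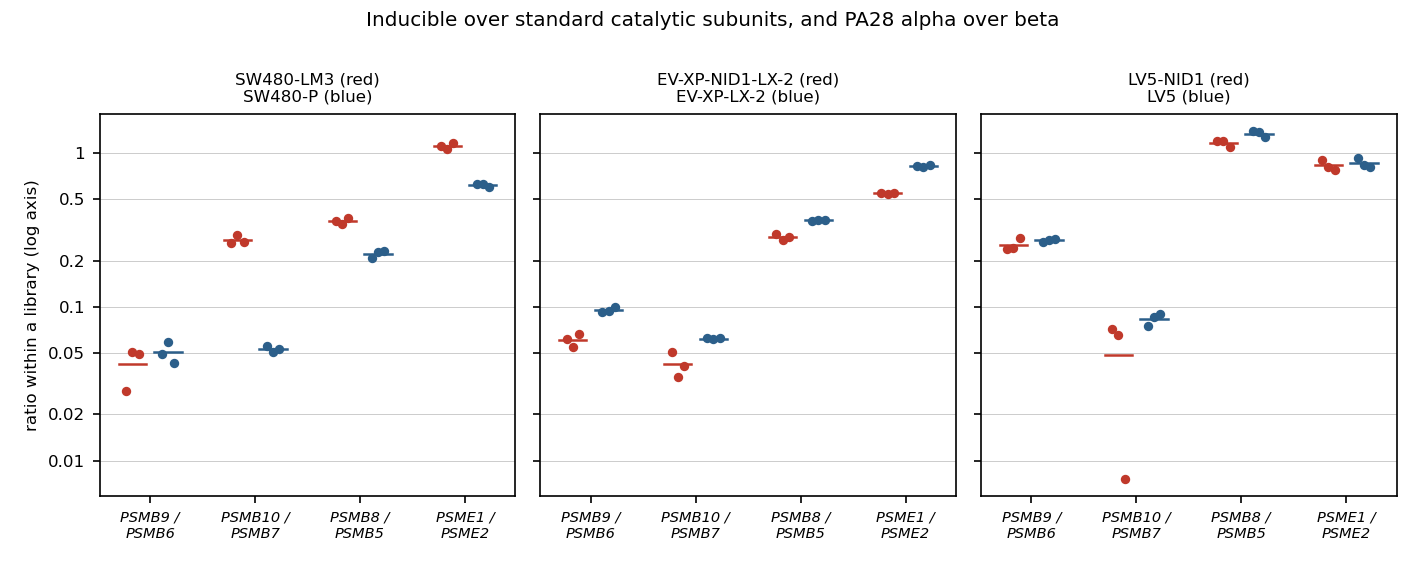
Ratio within each library (vertical log axis) of the inducible to the standard catalytic subunit and of PSME1 to PSME2, from normalised signal in the left panel and from TPM in the other panels, with points for libraries and bars for group means. PSMB10 over PSMB7 is 0.261 to 0.295 in SW480-LM3 against 0.0508 to 0.0558 in SW480-P, and 1 LV5-NID1 library stands at 0.00764, below both others of its group.

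**Figure D3:**
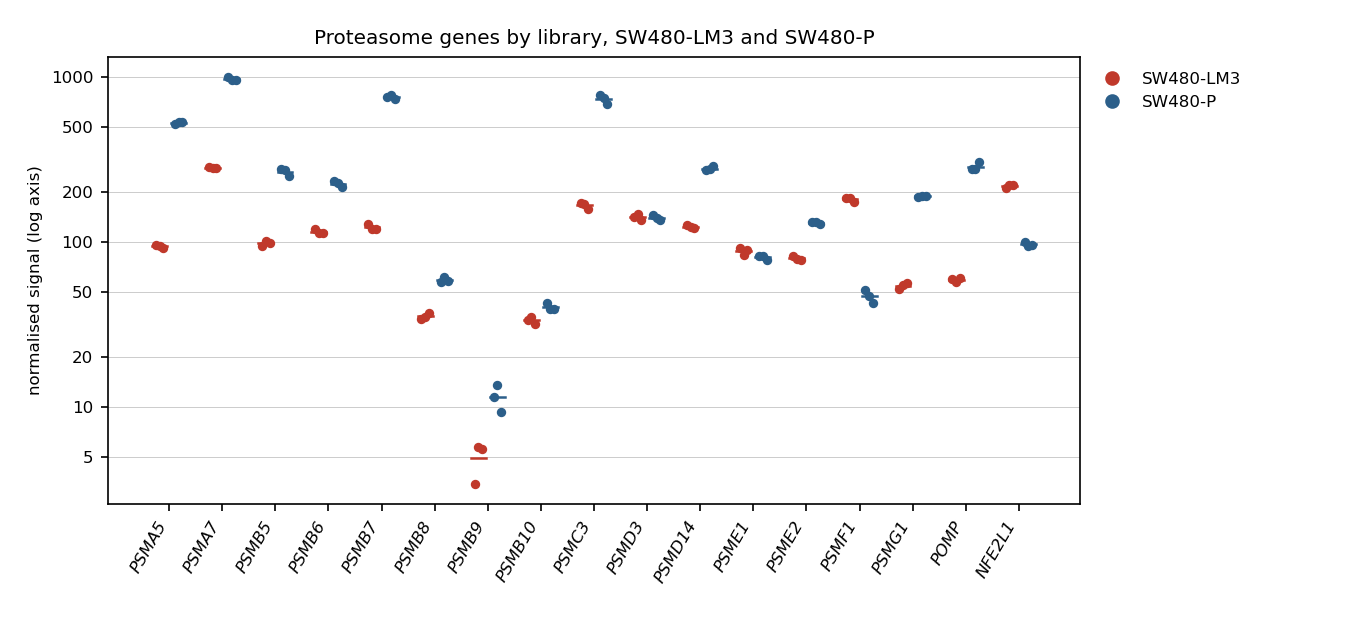
Normalised signal (vertical log axis) of 15 proteasome genes, POMP and NFE2L1 in the 3 SW480-LM3 and the 3 SW480-P libraries, with points for libraries and bars for group means. PSMF1, PSME1 and NFE2L1 are higher in SW480-LM3, PSMD3 overlaps between the groups, and the other genes shown are lower.

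Within the base, the 6 ATPase genes were lower with a median log2 difference of -1.68. PSMC3 had 173, 171 and 159 signal units in SW480-LM3, against 774, 748 and 689.7 signal units in SW480-P (log2 difference -2.13, SE 0.045, adjusted p = 4.29e-15), and PSMC2 had 119.5, 105 and 108 signal units in SW480-LM3, against 466, 466 and 469 signal units in SW480-P (log2 difference -2.07, SE 0.044, adjusted p = 5.05e-15). The other ATPase genes had log2 differences of -2.02 (PSMC1), -1.33 (PSMC6), -1.30 (PSMC4) and -0.90 (PSMC5). PSMD2, a scaffold of the base that also docks regulators, had 253, 264 and 238 signal units in SW480-LM3, against 312, 308 and 309 signal units in SW480-P, the smallest fall of the base (log2 difference -0.30, SE 0.039, adjusted p = 3.97e-06), and its call was lost with quantile normalization (-0.025) and library-total scaling (-0.013). PSMD4, a ubiquitin receptor, had a log2 difference of -1.35, and PSMD1 one of -0.63.

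The lid, which removes the ubiquitin chain, had the median nearest to 0 among the parts of the core and cap. PSMD14, the lid's deubiquitinase, had 126, 123 and 122 signal units in SW480-LM3, against 272, 275 and 289 signal units in SW480-P (log2 difference -1.17, SE 0.038, adjusted p = 4.54e-13). PSMD3 had 141, 148 and 136 signal units in SW480-LM3, against 145, 139 and 136 signal units in SW480-P, which overlap (log2 difference 0.021, SE 0.043, adjusted p = 0.652), and was the only member of 46 not called. It was called higher with quantile normalization (0.20) and library-total scaling (0.31), and lower with GC and length trends removed (-0.51). The other 6 lid genes were lower, by -1.02 for PSMD8 to -0.47 for PSMD13 on the log2 scale. Of these, PSMD6 was not called with GC and length trends removed (-0.033), and PSMD7 was then higher (0.50).

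Genes of the assembly chaperones were all lower, but with GC and length trends removed PSMD10 was higher (0.61, limma adjusted p = 1.29e-10) and PSMG2 was not called (0.044). PSMG1, whose product pairs with PSMG2 to start the alpha ring, had 51.6, 55.1 and 56.3 signal units in SW480-LM3, against 187, 191 and 191 signal units in SW480-P (log2 difference -1.78, SE 0.045, adjusted p = 2.82e-14), and PSMG2 had a log2 difference of -0.98, PSMG3 one of -1.45 and PSMG4 one of -1.16. POMP, the maturation factor of the beta ring, carries no PSM symbol and fell still more, with 59.7, 56.9 and 60.1 signal units in SW480-LM3, against 277, 275 and 305 signal units in SW480-P (log2 difference -2.26, SE 0.047, adjusted p = 3.86e-15). Among the base chaperones, PSMD5 had a log2 difference of -1.51, PSMD9 one of -1.18 and PSMD10, also known as gankyrin, one of -0.61. PSMD5-AS1, the antisense gene, had a mean signal of 35.8 in SW480-LM3 and 18.8 in SW480-P (23.0% of the PSMD5 level over all libraries). PSMD5 itself had a mean signal of 61.2 in SW480-LM3 and 177 in SW480-P, so the share was larger in SW480-LM3.

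The activators and the inhibitor were mixed, with 3 genes higher and 2 lower. PSMF1 encodes PI31, a protein known to inhibit the core in the test tube, and had 184, 186 and 175 signal units in the SW480-LM3 libraries, against 51.5, 46.8 and 42.6 signal units in the SW480-P libraries. All SW480-LM3 libraries were more than 3 times as high as any SW480-P library, and the mean was 3.87-fold higher (log2 difference 1.93, SE 0.060, adjusted p = 2.96e-13). PSME4, which encodes the activator PA200, had 92.6, 82.6 and 87.9 signal units in SW480-LM3, against 68.5, 78.5 and 76.1 signal units in SW480-P, a smaller difference (log2 difference 0.24, SE 0.059, adjusted p = 0.00183). With GC and length trends removed PSME4 was lower (-0.15). PSME1 and PSME2 encode both subunits of PA28, the interferon-inducible activator. PSME1 had 91.5, 83.9 and 89.5 signal units in SW480-LM3, against 82.8, 82.8 and 77.5 signal units in SW480-P (log2 difference 0.12, SE 0.050, adjusted p = 0.0324), and PSME2 had 82.4, 79.1 and 77.4 signal units in SW480-LM3, against 132, 131 and 128 signal units in SW480-P (log2 difference -0.71, SE 0.043, adjusted p = 6.56e-10). The RNAs of the PA28 partners thus differed in opposite directions, and the ratio of PSME1 to PSME2 was 1.11, 1.06 and 1.16 in SW480-LM3, against 0.626, 0.6302 and 0.605 in SW480-P. The call of PSME1 was lost without SW480-LM3 replicate 1, without SW480-LM3 replicate 3, without SW480-P replicate 3, with no variance trend and with DESeq2 on the recovered reads. PSME3, the nuclear PA28 gamma, had a log2 difference of -0.29, and its call was lost with quantile normalization (-0.077) and library-total scaling (-0.0060).

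Of 9 proteasome partners without a PSM symbol, 7 were lower and 1 higher, with a median of -0.72. SEM1, a small lid subunit, had 42.7, 41.6 and 40.1 signal units in SW480-LM3, against 195, 196 and 182 signal units in SW480-P (log2 difference -2.18, SE 0.047, adjusted p = 6.25e-15), and ADRM1, a ubiquitin receptor of the base, had 119, 132 and 120.4 signal units in SW480-LM3, against 221, 207 and 187 signal units in SW480-P (log2 difference -0.72, SE 0.056, adjusted p = 1.24e-08). USP14, a deubiquitinase that docks on the base, was the single higher one, with a log2 difference of 0.22, and is named because the count is 1. Of 10 genes that control subunit transcription or nuclear import, 6 were higher and 4 lower. NFE2L1 had 212, 221 and 222 signal units in SW480-LM3, against 99.6, 94.5 and 96.4 signal units in SW480-P, higher in all 3 libraries (log2 difference 1.16, SE 0.040, adjusted p = 8.01e-13). NFE2L2, which encodes NRF2, the oxidative stress factor, had 61.99, 60.3 and 61.4 signal units in SW480-LM3, against 141, 146 and 153 signal units in SW480-P and went the other way (log2 difference -1.25, SE 0.045, adjusted p = 1.5e-12).

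Genes for ubiquitin, for substrate delivery and for peptide transport did not move as one block in SW480-LM3. The highest log2 difference was 2.13 (UBA1) among ubiquitin and E1 enzyme genes and 1.74 (UBQLN2) among shuttle receptors and p97. Among genes for peptide transport and its regulators it was 1.57 (IRF1). Of 6 ubiquitin and E1 enzyme genes, 2 were higher and 4 lower, and RPS27A, a ubiquitin gene fused to a ribosomal protein, had 590.3, 567 and 568 signal units in SW480-LM3, against 2322, 2275 and 2335 signal units in SW480-P (log2 difference -2.0045, SE 0.028, adjusted p = 1.15e-16). Of 12 genes for shuttle receptors and p97, 6 were higher and 4 lower, and SQSTM1, the p62 receptor, had a log2 difference of -1.02. Of 9 genes for peptide transport and its regulators, 3 were higher and 3 lower. TAP1, a peptide transporter subunit, had 39.02 ± 2.41 signal units in SW480-LM3 and 35.2 ± 2.24 signal units in SW480-P (log2 difference 0.14, SE 0.070, adjusted p = 0.0667), and B2M, the class I light chain, had 351, 339 and 359 signal units in SW480-LM3, against 1394, 1372 and 1448 signal units in SW480-P (log2 difference -2.0037, SE 0.032, adjusted p = 3.48e-16).

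The size of these differences depended on how transcript length, GC content and scaling were treated. The members were short, with a median of 1467 bases against 2451 over all tested genes, and 1817 genes within the members' middle range of length and GC content had a median log2 difference of -0.35. With GC and length trends removed, the median of the 45 members with such values was -0.58, with 39 lower and 4 higher. All 13 standard core genes with values were lower there too, at a median of -0.99, while PSMD7 (0.50), PSMD10 (0.61), PSMG2 (0.044) and PSME4 (-0.15) changed sign. Scaling libraries to their totals moved the median of all genes to 0.26 and that of the members to -0.88, with 39 members lower and 4 higher. It also raised the share of higher calls among all called genes to 58.9%, beside 6376 higher and 6373 lower genes as deposited.

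LX-2 cells given NID1 vesicles had small and mixed differences, with most genes of the core barrel higher in the values as deposited. Of the 46 members, 20 were higher and 10 lower, beside 17.8% of all 15802 tested genes higher and 24.6% lower, and 16 were not called. The members' median log2 difference was 0.092, and that of all genes -0.048. With quantile normalization these medians were 0.0024 and 0.0098, so the members' median no longer lay above that of all genes. No called member differed by 1 or more on the log2 scale. Of the TPM sum, all members together made up 1.05% ± 0.03299 in EV-XP-NID1-LX-2 and 0.932% ± 0.00437 in EV-XP-LX-2, and the standard core made up 0.462% ± 0.03204 in EV-XP-NID1-LX-2 and 0.384% ± 0.000960 in EV-XP-LX-2 (SD, n = 3 each). The summed level of 10 listed stellate or fibroblast markers was 1741 to 2066 TPM after NID1 vesicles and 2506 to 2680.3 TPM after control vesicles, and its part in the members' values was not tested.

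Of the 14 standard core genes, 11 were higher and 1 lower. PSMA6 led, with 467, 549 and 465 TPM in the EV-XP-NID1-LX-2 libraries, against 361, 359 and 359.8 TPM in the EV-XP-LX-2 libraries. Each library of the NID1 vesicle group was above each control library (log2 difference 0.45, SE 0.069, adjusted p = 0.0023), and replicate 2 was the highest. PSMA1 was the lower one, at 139, 154 and 145 TPM in EV-XP-NID1-LX-2, against 167, 161 and 170.1 TPM in EV-XP-LX-2 (log2 difference -0.19, SE 0.051, adjusted p = 0.0239). That call was lost with no variance trend, the replicate block, median-ratio scaling, GC and length trends removed, and when some single libraries were left out. All 7 standard beta genes were higher, from PSMB4 at the low end (log2 difference 0.13, SE 0.043, adjusted p = 0.0497) to PSMB2 at the high end (log2 difference 0.39, SE 0.064, adjusted p = 0.00303). When any one EV-XP-LX-2 library was left out, 5 of the 7 beta genes and 8 of the 14 core genes were still called higher, with PSMB3 and PSMB4 not called. With quantile normalization, 4 of the 7 beta genes and 7 of the 14 core genes were called higher. PSMA2, PSMA5 and PSMA7 were higher by 0.26 to 0.39 on the log2 scale, while PSMA3 (0.23) and PSMA4 (0.050) were not called. The call of PSMA2 was lost in many settings, among them quantile normalization, median-ratio scaling and GC and length trends removed.

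The catalytic subunits of the barrel moved apart by type. PSMB5 had 229, 242 and 235 TPM in EV-XP-NID1-LX-2, against 188, 190.3 and 192 TPM in EV-XP-LX-2 (log2 difference 0.30, SE 0.040, adjusted p = 0.00139), PSMB6 had 344, 392.1 and 336 TPM in EV-XP-NID1-LX-2, against 294, 289 and 283 TPM in EV-XP-LX-2 (log2 difference 0.30, SE 0.064, adjusted p = 0.008), and PSMB7 had 409, 428 and 395 TPM in EV-XP-NID1-LX-2, against 348, 355 and 351 TPM in EV-XP-LX-2 (log2 difference 0.22, SE 0.044, adjusted p = 0.00621). Each of these 3 standard subunits was higher in every library given NID1 vesicles. Their inducible counterparts were not. PSMB9 had 21.2, 21.6 and 22.5 TPM in EV-XP-NID1-LX-2, against 27.3, 27.3 and 28.02 TPM in EV-XP-LX-2, with no overlap (log2 difference -0.33, SE 0.054, adjusted p = 0.00331). PSMB10 had 20.6, 14.9 and 16.4 TPM in EV-XP-NID1-LX-2, against 21.8, 21.7 and 21.97 TPM in EV-XP-LX-2, also lower (log2 difference -0.33, SE 0.11, adjusted p = 0.0483). The PSMB10 call was lost when any one of 5 of the 6 libraries was left out. It was lost too with the replicate block, no low filter, no variance trend, quantile normalization, and GC and length trends removed. PSMB8 had 68.5, 65.4 and 67.1 TPM in EV-XP-NID1-LX-2, against 68.4, 69.5 and 70.9 TPM in EV-XP-LX-2, which overlap, and was not called (log2 difference -0.055, SE 0.044, adjusted p = 0.356).

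Inside each library, the inducible subunit stood in a smaller ratio to its standard counterpart after NID1 vesicles. PSMB9 over PSMB6 was 0.0618, 0.05504 and 0.0669 in EV-XP-NID1-LX-2, against 0.09299, 0.0945 and 0.0991 in EV-XP-LX-2. PSMB10 over PSMB7 was 0.0505, 0.0348 and 0.0414 in EV-XP-NID1-LX-2, against 0.0625, 0.0613 and 0.0625 in EV-XP-LX-2. PSMB8 over PSMB5 was 0.299, 0.271 and 0.286 in EV-XP-NID1-LX-2, against 0.363, 0.365 and 0.368 in EV-XP-LX-2. None of these ratios overlapped between the groups, and their log2 differences were -0.64, -0.57 and -0.36. With 3 libraries against 3, an exact test cannot give a p below 0.1, so none is given. Of the PA28 genes, PSME1 was lower (219.8, 213 and 219.9 TPM in EV-XP-NID1-LX-2, against 270.2, 266 and 274 TPM in EV-XP-LX-2, log2 difference -0.31, SE 0.039, adjusted p = 0.00117) and PSME2 higher (399, 390.2 and 401 TPM in EV-XP-NID1-LX-2, against 327, 329 and 328 TPM in EV-XP-LX-2, log2 difference 0.27, SE 0.037, adjusted p = 0.0015). The ratio of PSME1 to PSME2 was 0.551, 0.546 and 0.548 in EV-XP-NID1-LX-2, against 0.827, 0.808 and 0.834 in EV-XP-LX-2. In SW480-LM3 this ratio stood higher than in its parent, and the difference between the comparisons was not tested.

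**Figure D4:**
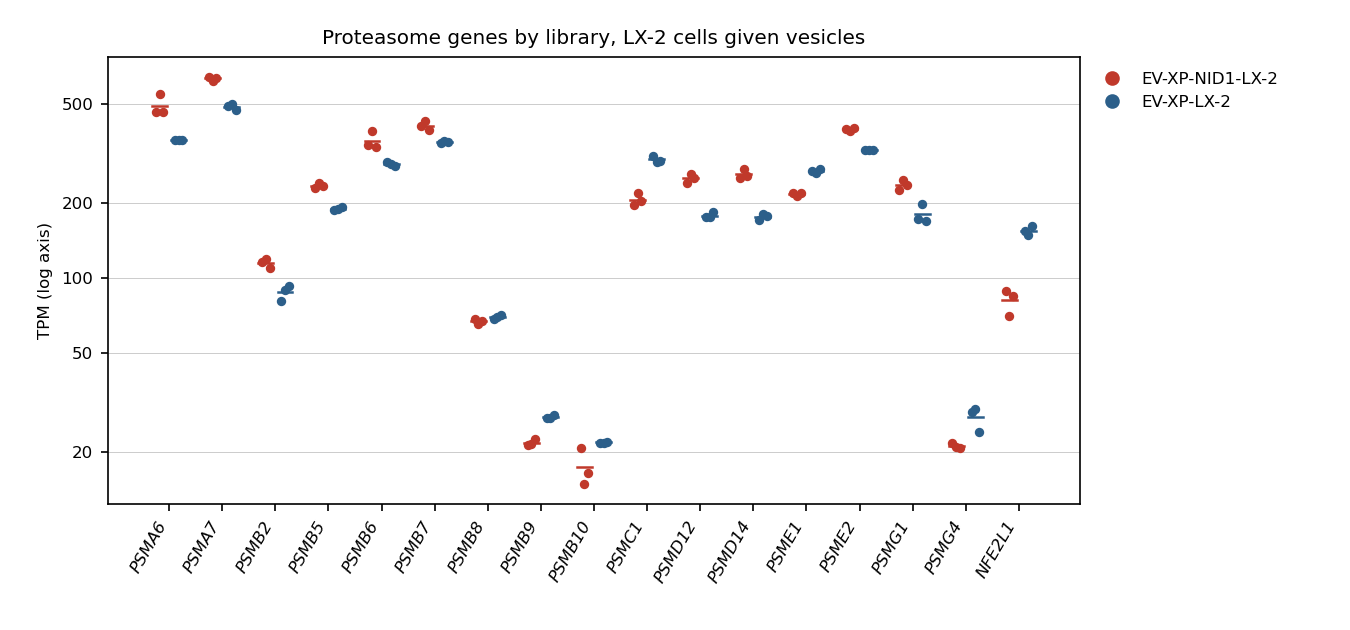
TPM (vertical log axis) of 16 proteasome genes and NFE2L1 in the 3 libraries of LX-2 cells given NID1 vesicles and the 3 given control vesicles, with points for libraries and bars for group means. The standard subunits PSMB5, PSMB6 and PSMB7 are higher after NID1 vesicles, PSMB9, PSMC1, PSME1 and NFE2L1 are lower, and PSMB8 overlaps.

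The cap was divided. PSMD14 rose most of all members, with 253, 274 and 257 TPM in the EV-XP-NID1-LX-2 libraries, against 172, 181 and 177 TPM in the EV-XP-LX-2 libraries. The groups were far apart for their spread (log2 difference 0.56, SE 0.047, adjusted p = 0.000324). PSMD12, another lid gene, had 242, 262 and 254 TPM in EV-XP-NID1-LX-2, against 175, 175 and 184 TPM in EV-XP-LX-2 (log2 difference 0.50, SE 0.047, adjusted p = 0.00047), while PSMD3 of the lid was lower (log2 difference -0.24, SE 0.064, adjusted p = 0.0213). PSMD7 (0.31) and PSMD8 (0.36) were also higher, and PSMD6, PSMD11 and PSMD13 were not called, so that 4 lid genes were higher and 1 lower. The call of PSMD3 was lost without any one EV-XP-LX-2 library and with GC and length trends removed. In the base, 2 genes were higher and 3 lower. The top one was PSMC4 (log2 difference 0.37, SE 0.055, adjusted p = 0.00204), with PSMC2 next (0.36). PSMD1 (-0.18) and PSMD2 (-0.15) were lower, and PSMC3, PSMC5, PSMC6 and PSMD4 were not called. The calls of PSMD1 and PSMD2 were lost with no low filter, no variance trend and without any one EV-XP-LX-2 library. That of PSMD2 was lost too with the replicate block, median-ratio scaling and GC and length trends removed. PSMC1 at the bottom had 198, 220.0 and 204 TPM in EV-XP-NID1-LX-2, against 311, 294 and 296 TPM in EV-XP-LX-2, the largest fall of the family (log2 difference -0.54, SE 0.053, adjusted p = 0.000544). PSMC1 has pseudogene copies, and the copy PSMC1P1 was listed at a mean of 22.4 TPM after NID1 vesicles against 32.0 TPM after control vesicles, so the split of reads between them is uncertain.

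Among the chaperones, PSMD10 had 155, 181 and 162 TPM in EV-XP-NID1-LX-2, against 119.5, 124 and 119.8 TPM in EV-XP-LX-2 (log2 difference 0.45, SE 0.063, adjusted p = 0.00174), and PSMD5 was not called (log2 difference -0.073, SE 0.053, adjusted p = 0.3). PSMG1 was higher (237 ± 11.01 TPM in EV-XP-NID1-LX-2 and 180.3 ± 15.3 TPM in EV-XP-LX-2, log2 difference 0.40, SE 0.069, adjusted p = 0.00379) and PSMG4 lower (21.1 ± 0.524 TPM in EV-XP-NID1-LX-2 and 27.5 ± 3.04 TPM in EV-XP-LX-2, log2 difference -0.36, SE 0.086, adjusted p = 0.0132). POMP had 239, 311 and 238 TPM in EV-XP-NID1-LX-2, against 188, 184 and 190.1 TPM in EV-XP-LX-2 (log2 difference 0.48, SE 0.10, adjusted p = 0.00866), with replicate 2 again the highest. PSMG3 was lower (-0.21), a call lost with median-ratio scaling and with GC and length trends removed. PSMG2 and PSMD9 were not called. Nor were PSMF1 (log2 difference -0.11, SE 0.080, adjusted p = 0.299), PSME3 (0.085) and PSME4 (0.089).

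Of the 9 partners, 6 were higher and 2 lower. SEM1 had 230.3, 310.0 and 226 TPM in EV-XP-NID1-LX-2, against 169, 172 and 206 TPM in EV-XP-LX-2 (log2 difference 0.47, SE 0.13, adjusted p = 0.0252), ADRM1 had 218 ± 18.9 TPM in EV-XP-NID1-LX-2 and 175 ± 5.89 TPM in EV-XP-LX-2 (log2 difference 0.31, SE 0.068, adjusted p = 0.00947), and TXNL1, a thioredoxin-like partner of the cap, had 189 ± 7.72 TPM in EV-XP-NID1-LX-2 and 148 ± 3.67 TPM in EV-XP-LX-2 (log2 difference 0.36, SE 0.047, adjusted p = 0.00139). Of the 10 genes for transcriptional and import control, 2 were higher and 4 lower. NFE2L1 had 88.5, 70.6 and 84.97 TPM in EV-XP-NID1-LX-2, against 155, 149.5 and 162 TPM in EV-XP-LX-2 (log2 difference -0.93, SE 0.086, adjusted p = 0.000445), and its relative NFE2L3 had 20.4, 20.5 and 21.7 TPM in EV-XP-NID1-LX-2, against 47.5, 42.8 and 44.7 TPM in EV-XP-LX-2 (log2 difference -1.07, SE 0.060, adjusted p = 0.000163). NFE2L2 was not called, at 105 ± 6.23 TPM in EV-XP-NID1-LX-2 and 102 ± 0.465 TPM in EV-XP-LX-2 (log2 difference 0.034, SE 0.053, adjusted p = 0.638).

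Of 12 genes for shuttle receptors and p97, 4 were higher and 8 not called, with SQSTM1 at 1150.2, 1017 and 1124 TPM in EV-XP-NID1-LX-2, against 595, 622 and 628 TPM in EV-XP-LX-2 (log2 difference 0.83, SE 0.058, adjusted p = 0.000232). Of the 9 genes for peptide transport and its regulators, 4 were higher and 2 lower. TAP1 had 66.3 ± 4.35 TPM in EV-XP-NID1-LX-2 and 54.03 ± 2.14 TPM in EV-XP-LX-2 (log2 difference 0.29, SE 0.062, adjusted p = 0.00924), and IRF1, an interferon response factor, had 114 ± 7.43 TPM in EV-XP-NID1-LX-2 and 81.1 ± 2.03 TPM in EV-XP-LX-2 (log2 difference 0.49, SE 0.057, adjusted p = 0.000931).

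One library bore on these values. EV-XP-NID1-LX-2 replicate 2 was the highest of its group in 24 of 46 members and the lowest in 17. Its genes at or above 61.7% GC had a median deviation of -0.25 on the log2 scale from the mean of the other libraries of its group. The same value was 0.16 and 0.095 for the other replicates. The part of GC content in the members' values was not tested. Without this library, 24 members were higher and 9 lower. Quantile normalization left 16 higher and 10 lower, with PSMB3 and PSMB7 no longer called and PSMB4 turned to -0.0040. With GC and length trends removed, 25 were higher and 5 lower. The count of lower members was 5 without EV-XP-NID1-LX-2 replicate 3, and 3, 5 and 5 without EV-XP-LX-2 replicates 1, 2 and 3. Over all genes, the share of higher calls among called genes was 41.9% as deposited, 50.8% with quantile normalization and 51.2% with median-ratio scaling, while among called members it was 66.7% and 61.5% for the first pair of these, and 21 members were higher and 7 lower with the last.

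LV5-NID1 differed little from LV5 in this family. Of the 46 members, 5 were lower and none higher by limma, beside 9.32% of all 15508 tested genes lower and 7.27% higher. At an unadjusted p under 0.05, 9 were lower and 1 higher, beside 17.2% of all tested genes lower and 17.1% higher. The members' median log2 difference was -0.045, and that of all genes 0.0059. Of the TPM sum, all members made up 0.736% ± 0.0247 in LV5-NID1 and 0.751% ± 0.0169 in LV5 (SD, n = 3 each), a difference within the spread of the libraries. The summed level of 10 colon epithelium markers was 927 to 988 TPM in LV5-NID1 and 1633 to 1673 TPM in LV5, and its part in the members' values was not tested. Of the 4 such markers that passed the filter, 3 were lower and EPCAM was higher (log2 difference 0.74). The 5 lower members were PSMB6, PSMB8, PSMD2, PSME1 and PSMF1.

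PSMB8 had 119, 115 and 114 TPM in the LV5-NID1 libraries, against 137, 138 and 144 TPM in the LV5 libraries. All LV5-NID1 libraries were below all LV5 libraries (log2 difference -0.27, SE 0.046, adjusted p = 0.0174). PSMB9 had 29.4, 30.9 and 36.4 TPM in LV5-NID1, against 38.1, 38.5 and 41.9 TPM in LV5, with no overlap but not called (log2 difference -0.29, SE 0.093, adjusted p = 0.0835). PSMB10 had 28.2, 25.9 and 3.37 TPM in LV5-NID1, against 29.1, 33.8 and 35.2 TPM in LV5, so that LV5-NID1 replicate 3 alone sets its mean (log2 difference -1.16, SE 0.73, adjusted p = 0.303). Without that library its log2 difference was -0.26 (adjusted p = 0.0963). The summed share of the immunoproteasome genes was 0.0167% ± 0.00119 in LV5-NID1 and 0.0212% ± 0.000870 in LV5.

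Of the standard catalytic subunits, PSMB6 had 123, 128 and 129.6 TPM in LV5-NID1, against 143, 142 and 152 TPM in LV5 (log2 difference -0.20, SE 0.050, adjusted p = 0.0461). PSMB5 had 99.2, 96.04 and 105 TPM in LV5-NID1, against 99.01, 101 and 113 TPM in LV5, and PSMB7 had 393, 397 and 441 TPM in LV5-NID1, against 389, 395 and 394 TPM in LV5, and for both the groups overlapped (adjusted p = 0.573 and 0.482). The ratio of PSMB8 to PSMB5 was 1.201, 1.19 and 1.09 in LV5-NID1, against 1.38, 1.37 and 1.27 in LV5, without overlap and with a log2 difference of -0.21. That of PSMB9 to PSMB6 was 0.239, 0.242 and 0.281 in LV5-NID1, against 0.266, 0.272 and 0.276 in LV5, which overlap. In the alpha ring the log2 differences ran from -0.15 for PSMA7 (adjusted p = 0.123) to 0.088 for PSMA6 (adjusted p = 0.486). PSMB1 to PSMB4 ran from -0.092 for PSMB3 to 0.083 for PSMB4.

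An activator gene and the inhibitor gene were lower. PSME1 had 118, 112 and 115 TPM in LV5-NID1, against 141, 136 and 136 TPM in LV5 (log2 difference -0.26, SE 0.045, adjusted p = 0.0175), and PSME2 had 129.5, 138 and 149 TPM in LV5-NID1, against 151, 163 and 167 TPM in LV5, not called (log2 difference -0.21, SE 0.070, adjusted p = 0.0954). PSMF1 had 46.5, 41.9 and 42.2 TPM in LV5-NID1, against 50.2, 55.6 and 51.9 TPM in LV5 (log2 difference -0.27, SE 0.068, adjusted p = 0.0467), a difference opposite in sign to that of SW480-LM3. PSMD2 of the base had 116, 114 and 128 TPM in LV5-NID1, against 143, 141 and 137 TPM in LV5 (log2 difference -0.23, SE 0.059, adjusted p = 0.0468). The base ATPase PSMC6 had the highest log2 difference of all members, 0.15 (adjusted p = 0.0848), and the lid ran from -0.18 for PSMD8 to 0.10 for PSMD3. Not called either were the chaperones PSMG1 (-0.061), PSMG2 (0.019), PSMD5 (0.042) and PSMD10 (0.13) and the activators PSME3 (0.071) and PSME4 (-0.090), all on the log2 scale.

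The calls in LV5-NID1 are weakly held. All 5 were lost when LV5-NID1 replicate 2, or any one of the LV5 libraries, was left out, and also with quantile normalization, which moved the share of higher calls among all called genes to 54.8%, beside 43.8% as deposited, and called PSMC6 higher. LV5-NID1 replicate 3 stood apart: its log2 values correlated with those of replicates 1 and 2 at r = 0.9587 and 0.9690, against 0.9891 between these (across 15508 genes, which are not independent replicates). In it PSMD9, a base chaperone, was at 32.1 TPM, against 81.1 and 73.9 TPM in the other LV5-NID1 libraries, PSMG3 at 78.2 TPM against 135 and 131 TPM, and PSMG4 at 17.1 TPM against 35.2 and 30.2 TPM. ADRM1 was at 32.9 TPM there, against 105 and 86.98 TPM in the other LV5-NID1 libraries and 106 to 107 TPM in LV5. Genes at or above 61.7% GC had a median deviation of -0.81 in that library from the mean of the other libraries of its group. The same value was 0.54 and 0.29 for the other LV5-NID1 libraries. GC content is 64.5% in ADRM1, 60.1% in PSMB10, 59.3% in PSMG3 and 53.6% in both PSMD9 and PSMG4. PSMD3, at 58.6% GC, was not low in that library, at 75.5 TPM against 75.3 and 72.8 TPM in the other LV5-NID1 libraries. The part of GC content in these values was not tested. Without replicate 3, 7 members were lower (PSMB6, PSMB8, PSMB9, PSMD2, PSMD11, PSME1 and PSME2) and PSMG4 higher.

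**Figure D5:**
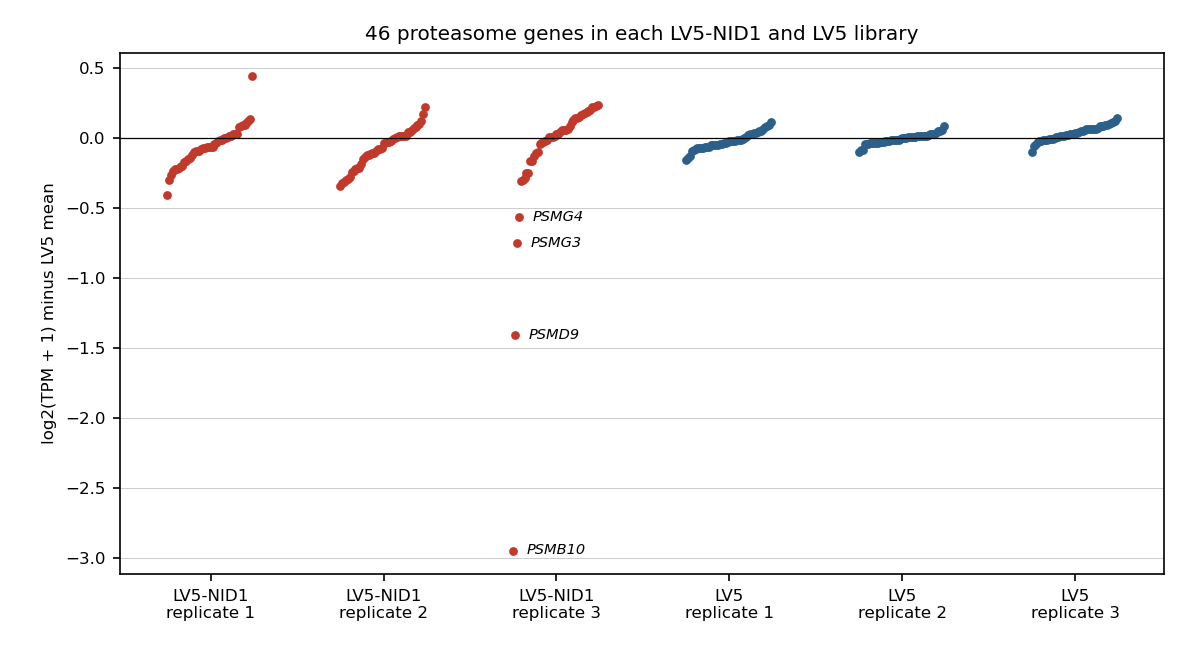
Level of each of 46 proteasome genes in each LV5-NID1 and LV5 library, as log2 of TPM plus 1 minus the mean of the 3 LV5 libraries (vertical axis), with 1 point per gene in ascending order within a library. In LV5-NID1 replicate 3, 4 genes lie below -0.5 (PSMB10, PSMD9, PSMG3 and PSMG4, down to -2.94), while no gene does so in the other 5 libraries.

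Around the particle, few listed genes were called in LV5-NID1. POMP averaged 72.4 ± 3.29 TPM in LV5-NID1 and 81.05 ± 4.87 TPM in LV5 (adjusted p = 0.143) and SEM1 257 ± 26.6 TPM in LV5-NID1 and 312 ± 13.5 TPM in LV5 (adjusted p = 0.0727). NFE2L1 was not called, at 63.3 ± 0.561 TPM in LV5-NID1 and 59.7 ± 5.53 TPM in LV5 (adjusted p = 0.442), while NFE2L2 was lower, at 83.01, 88.2 and 96.6 TPM in LV5-NID1, against 107, 115 and 117 TPM in LV5 (log2 difference -0.34, SE 0.071, adjusted p = 0.0282). RPS27A was higher (2648 ± 199 TPM in LV5-NID1 and 2144 ± 64.7 TPM in LV5, log2 difference 0.30, SE 0.065, adjusted p = 0.0302), and B2M lower (2633 ± 131 TPM in LV5-NID1 and 3169.8 ± 177 TPM in LV5, log2 difference -0.27, SE 0.062, adjusted p = 0.0374). TAP1 was not called (log2 difference -0.088, SE 0.062, adjusted p = 0.351).

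The TPM values, which are per length, also allow members to be ordered within a group. Among the 14 standard core genes, whose products stand in equal number in the barrel, the mean level spanned 5.52-fold in EV-XP-NID1-LX-2, 5.58-fold in EV-XP-LX-2, 4.62-fold in LV5-NID1 and 4.45-fold in LV5. PSMB2 was lowest and PSMA7 highest in both LX-2 groups (115 and 636 TPM after NID1 vesicles, 87.6 and 489 TPM after control vesicles). In LV5-NID1 and LV5 the lowest was PSMB5, at 99.99 and 104 TPM. PSMC3 was the highest of all members in LV5-NID1 (687 TPM) and in LV5 (681 TPM). The inducible subunit PSMB8 exceeded PSMB5 in every LV5-NID1 and LV5 library, with ratios of 1.09 to 1.38, whereas in LX-2 cells the ratio stayed between 0.271 and 0.368. PSMB10 was the lowest of the 46 tested members in both LX-2 groups, at 17.3 TPM after NID1 vesicles and 21.8 TPM after control vesicles.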

How the data were processed

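RNA of 18 libraries in 6 groups was sequenced after oligo(dT) selection, per the labels' protocols. The submitters' processing notes name HISAT2 2.1.0 and Bowtie2 2.3.5. The read counter, build and gene models: not given in the sources used here. For SW480-LM3 and SW480-P the authors deposited a signal, reads divided by a factor per library: 100% of its values came out as whole reads within 0.05 read. For the LX-2 and LV5 tables the authors deposited TPM, which is scaled per length and library.

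Testing took the genes with a value of at least 1 in 3 or more libraries, by limma 3.58.1 (R 4.3.3, variance trend) on log2(value + 1), which understates changes of low genes, with Benjamini-Hochberg adjustment over all genes and a threshold of 0.05. Each table was fitted alone. Alternatives were quantile, library-total and median-ratio scaling, other pseudocounts and filters, each library left out, a replicate block, edgeR 4.0.16 (6309 genes higher, 6378 lower) and DESeq2 1.42.0 on recovered reads and, added after the data were seen, removal of GC and length trends. Same-numbered libraries did not deviate together (r = -0.047 to 0.063), so numbers were not taken as pairs.

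The members and gene lists were chosen with earlier results of these data known. Named in each comparison are the catalytic subunits, PSME1 and PSME2, the 4 called members with the largest rise and fall, the extremes of each class, and from other lists NFE2L1, NFE2L2, POMP, ADRM1, SEM1, TAP1 and the called gene with the smallest adjusted p. Members and genes of other lists further named were chosen after their values were seen. One gene that this rule names is not reported here.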

Additional observations from a re-analysis of the deposited data

How the results depend on the processing

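Counts of lower members in the LX-2 cells were 6 with no variance trend, 5 with GC and length trends removed and 3 to 9 with each library left out. In LV5-NID1, the count of higher members was 1 with quantile normalization and 0 to 1 with libraries left out. Its count of lower members was 0 with quantile normalization, 2 with no low filter, 2 with no variance trend and 0 to 7 with libraries left out. Single members reversed in SW480-LM3 with library-total scaling (PSMB10, 0.024) and with GC and length trends removed (PSMD7, 0.50, PSMD10, 0.61, PSME4, -0.15, PSMG2, 0.044), and in the LX-2 cells with quantile normalization (PSMB4, -0.0040). For these the cause was not tested. With the replicate block, 42 members were lower and 3 higher in SW480-LM3, 7 lower and 19 higher in the LX-2 cells, and 0 lower in LV5-NID1. Of the values of single members under the alternatives, 763 kept their side of the threshold in SW480-LM3, 652 in the LX-2 cells and 688 in LV5-NID1. Those of called members also kept direction, while those of members not called could change sign. With 3 libraries a group, differences under about the spread between libraries were not detectable.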
